A study of Homo sapiens with 4 samples.

Results

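The protein-coding genes described here carried 9 listed windows each in a peak table of RNA bound by YTHDF1, and no gene of the table carried more than 9. They were chosen by counting rows: after 1 exact repeat was dropped, 854 of 6679 protein-coding gene identifiers had exactly 9 windows, which is 12.8% of the coding genes. Together they held 7686 of the 26819 windows of the table, and the 5825 coding genes with 1 to 8 windows held 17068. The number of listed windows chose these genes, so the windows, their signal values and their p-values are given as a description and were not tested.

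The series used RIP-seq, in which RNA is sequenced after it is pulled down with a protein, to ask which transcripts YTHDF1 binds when SNU638 cells, an established human gastric cancer line, respond to interferon-γ (IFN-γ). All 4 libraries came from cells that overexpressed YTHDF1, were starved of serum (24 h) and then received IFN-γ at 10 ng/ml (24 h), and 2 were IP-YTHDF1 and 2 were Input. A control without overexpression or without IFN-γ was not analysed here, and the bound protein was the overexpressed one. The table lists 50 bp windows with 1 signal value each, beside a p-value and its adjusted q-value, and names no library, so the value in each library, the spread between replicates and the depth behind a window are unknown. Of 12 epithelial marker genes, 5 were listed (KRT8, KRT18, KRT19, EPCAM and CLDN7), and none of them carried 9 windows. None of 5 markers of other cells was listed, but a peak table does not show the level of a gene.

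YTHDF1 is a cytoplasmic protein that recognises N6-methyladenosine (m6A), a methyl mark on adenosines of mRNA. The mark is written within a short consensus whose core is GGAC, and it is known to be frequent in long internal exons and around stop codons. Its readers have been linked to both the decay and the translation of marked mRNAs.

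Because sequence was available only around annotated gene starts, the letters under a window could be read in 198 member windows (2.58% of the 7686) from 104 genes. The sites below are 30-base stretches of such windows with the letters GGAC, shown because this is the core of the consensus that m6A readers are known for. The first 5 are from the covered windows with the largest signal values that held it, and the others are from members described below. Sequences are those of RefSeq promoter entries (GRCh38.p14), written 5′ to 3′ on the strand of the gene, with the first GGAC of each window in capitals.
DYRK1A, chr21:37367381-37367410, plus strand: atcggggcccggGGACtgcggtatttgccg
PCMTD2, chr20:64255766-64255795, plus strand: aggttggagcggcgctgctcggccgcGGAC
AFF1, chr4:87007273-87007302, plus strand: tcccgtaacatcggggcgccgcgccgGGAC
SAMD8, chr10:75111644-75111673, plus strand: ggggagggccccGGACtccgacggcggctc
BTBD3, chr20:11890894-11890923, plus strand: agcgggcacagggcaaggcggcGGACggct
JAK2, chr9:4985011-4985040, plus strand: caccgagcggcgcacgcgcactgcaGGACg
SYNE2, chr14:63853004-63853033, plus strand: agctgcgcccagagccttcggccGGACctg
SLMAP, chr3:57757166-57757195, plus strand: ttcggcccaaaaGGACtttcctggccgcgc

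The windows behind these sites had signal values of 3.27 in DYRK1A, 3.14 in PCMTD2, 2.92 in AFF1, 2.65 in SAMD8, 2.58 in BTBD3, 2.10 in SYNE2, 1.63 in JAK2 and 1.31 in SLMAP. Relative to the start in the promoter entry, which can differ from the 5′ end of the whole gene interval, these windows began at -183 bp in DYRK1A, -130 bp in BTBD3, -105 bp in SLMAP, -95 bp in JAK2, -20 bp in SYNE2, -19 bp in SAMD8, -18 bp in AFF1 and -2 bp in PCMTD2. Most of these sites thus lie upstream of that start or across it, so part of their letters may be outside the transcript that the entry describes. GGAC stood in 39 of the 198 covered member windows (19.7%) and in 170 of 687 covered windows of genes with 1 to 8 windows (24.7%). Over all 50-base stretches of the RefSeq promoter intervals of coding genes the share was 18.1%, and over the first 50 transcribed bases it was 19.8%. The longer GGACT stood in 6 member windows (3.03%), in 6.26% of the windows of genes with 1 to 8 windows and in 4.62% of all stretches. GGAC and GGACT overlap by construction, and only the strand of the gene was searched. The share in member windows was thus within a few points of that of gene starts in general, and the letters under the remaining member windows were not read.

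The number of genes fell with each additional window and then jumped at 9. The table held 1934 coding genes with 1 window, 1175 with 2, 855 with 3, 568 with 4, 483 with 5, 344 with 6, 260 with 7 and 206 with 8, followed by the 854 with 9. Windows within a gene were numbered from 1 to 9 in order of genome position.

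**Figure D1:**
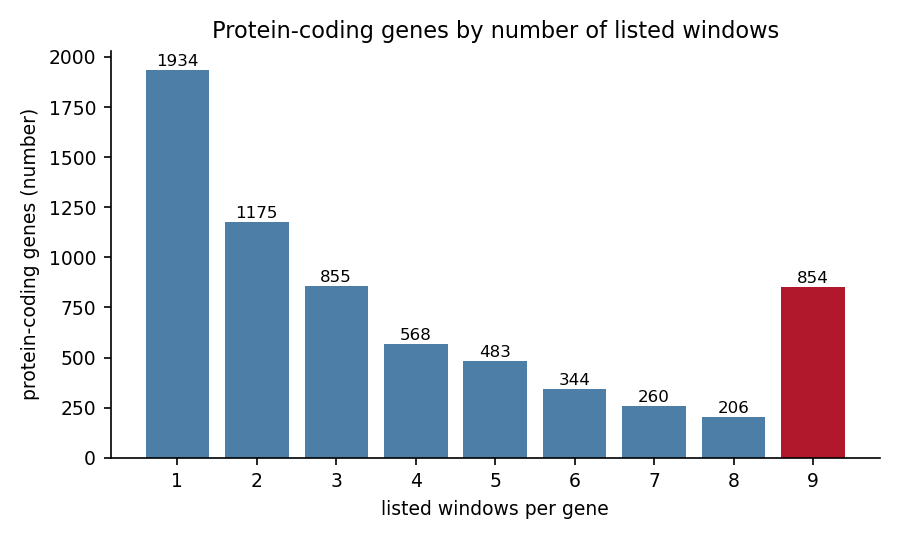
Number of protein-coding genes (vertical axis) with each number of listed windows (horizontal axis); blue bars are genes with 1 to 8 windows and the red bar is the genes with 9. The bars descend from 1934 genes with 1 window to 206 with 8, and the bar at 9 stands at 854.

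The q-values showed that most of these genes had more windows than were listed. The q-value of a window equalled its p-value times the number of windows tested in the gene, divided by the rank of the window in that gene, as in a Benjamini-Hochberg adjustment made gene by gene. Both numbers could therefore be read back in 830 of the 854 genes. In 639 of the 830 (77.0%) a listed window had a rank above 9, so that more than 9 windows had passed. In the other 191 no rank above 9 was read. A rank was skipped in 645 of the 830, so some of the 191 also had more windows than were listed. In contrast, ranks were read by the same margin in 1535 genes of any type with 2 to 8 windows. None of these had a highest rank above its number of listed windows, and the other genes with 2 to 8 windows were not read. The highest rank read, taken as no less than 9, is a lower bound for the windows that passed, called here windows called. Its median over the members was 11 (quartiles 10 and 14), 547 genes had at most 12, and 67 had 20 or more. The windows called beyond the 9 listed summed to at least 3052 in these coding genes.

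MPRIP, which encodes a myosin phosphatase adaptor on actin fibres, had at least 72 windows called of 295 tested. EPPK1, which encodes the cytolinker epiplakin, had at least 51 of 320, CIITA, the master activator of MHC class II genes, at least 41 of 196, and ZC3HAV1, an antiviral zinc finger protein, at least 35 of 100. EGLN1, an oxygen-sensing prolyl hydroxylase, had at least 23 of 40, although all 9 of its listed windows were shared with an overlapping gene. At the other end, RNF213, a giant ubiquitin ligase, had at least 9 of 580 and KMT2D, a histone H3 lysine methyltransferase, at least 9 of 259. These 7 genes were chosen after their values were seen. The windows called thus made up at least 1.55% of the tested windows in RNF213 and at least 57.5% in EGLN1, and the median of this lower bound over members was 15.2% (quartiles 11.1% and 20.9%).

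**Figure D2:**
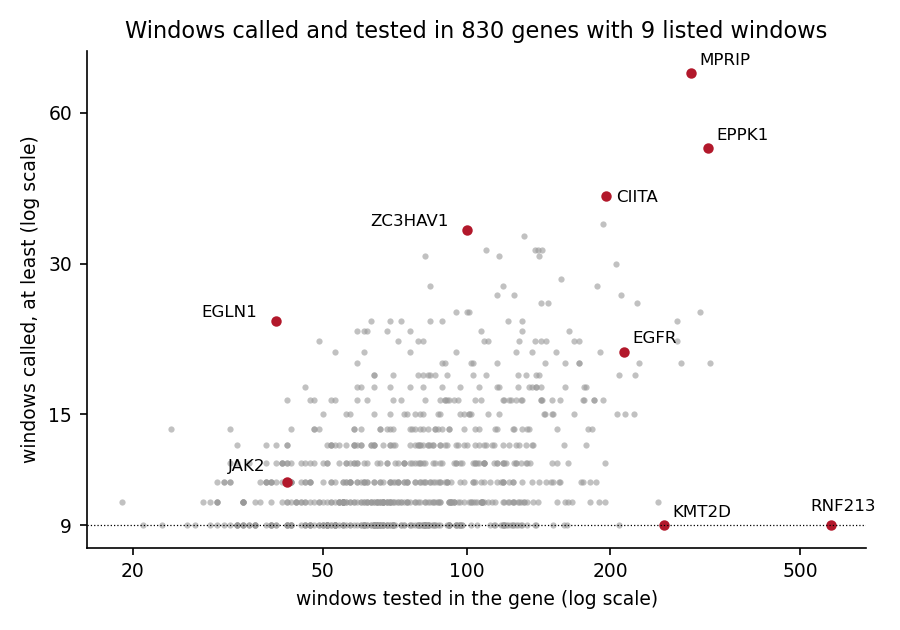
Lower bound of the windows called (vertical axis, log scale) against the windows tested (horizontal axis, log scale) in the 830 genes with 9 listed windows whose ranks were read; each grey point is a gene, red points are named genes and the dotted line marks 9. MPRIP and EPPK1 lie highest, and RNF213, with 580 tested windows, lies on the line at 9.

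Genes with more tested windows reached 9 more often. The members had a median of 78 tested windows (quartiles 57 and 109, range 19 to 580), against 32 in genes with 1 to 8 windows and 50.5 in genes with 5 to 8. In members this number had to fit better than the alternatives by a set margin. That margin was not required of genes with 1 to 8 windows, of which 5799 had a number. All shares by tested windows given here and below rest on these numbers. The limit was reached by 1 of 1558 coding genes with under 20 tested windows and by 2.78% of those with 20 to under 40. The share was 17.5% from 40 to under 80, 45.6% from 80 to under 160 and 63.7% (58 of 91) at 160 or more. RefSeq gene span gave the same order with smaller steps: 3.99% of genes under 5000 bp carried 9 windows, 7.78% from 5000 to under 20000 bp, 13.2% to under 50000 bp, 16% to under 100000 bp and 19.8% above. The median span was 50290.5 bp in members, 29105 bp in genes with 1 to 8 windows and 36520 bp in genes with 5 to 8. Tested windows come from the same table as the rule, whereas the span does not.

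Length was not a requirement. The member with the shortest RefSeq span was JUND, an AP-1 transcription factor, at 1929 bp, and other short members were HSPA1A, an inducible HSP70 chaperone, at 2400 bp, FOXD1, a forkhead factor, at 2512 bp, and MYEOV at 3133 bp. The longest were NRG1, a ligand of ERBB receptors, at 1134800 bp, ZFHX3, a zinc finger and homeobox factor, at 1109050 bp, NPAS3 at 869389 bp, NAV2 at 776366 bp and LRBA at 751293 bp. In NRG1 the 9 windows nevertheless lay within 1250 bp, 1007680 bp from the 5′ end of the interval. In LRBA they were spread over 732300 bp, the widest of all members.

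The signal value of a typical window decreased as windows per gene increased. The median of gene medians was 2.07 in genes with 1 window, 1.76 in genes with 8 and 1.71 in genes with 9 (quartiles 1.46 and 1.96). The adjustment was made gene by gene, so the largest p-value that passed depended on the windows tested and called in a gene. Its part in this decrease was not tested. The strongest of more windows is higher by construction, and the weakest lower. The strongest window of a gene had medians of 2.07, 2.48 and 2.48 at 1, 8 and 9 windows. The weakest window had a median of 1.27 at 8 windows and 1.20 at 9. On each of these measures the genes just inside the limit and those just outside it were close. The genes with 8 windows and the largest medians were IER5L (2.63), CAND1 (2.61), an exchange factor of cullin ligases, and SMCHD1 (2.55), a chromatin protein of the inactive X chromosome.

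USP24, a ubiquitin-specific protease, had the largest median of all members (3.05), and its windows read from the 5′ side were 3.33, 3.61, 2.33, 2.10, 2.57, 2.94, 3.25, 3.05 and 3.15. GABBR1, which encodes a subunit of the GABA-B receptor, followed at 3.0, with windows of 3.0, 2.56, 3.28, 3.30, 3.52, 3.55, 2.15, 2.60 and 1.65. OTUD4, a deubiquitinase that binds RNA, stood at 2.76, CIITA at 2.71 and CNNM2 at 2.68. All windows of USP24 lay above the median of an average member, and in GABBR1 only the window farthest 3′ lay below it. The windows assigned to GABBR1 left the RefSeq interval of the gene by more than 500 bp, as did those of 26 members in all, WNT5B, HOXB7, PSMB9, HIST1H2BN and ALKBH5 among them. Because the windows of GABBR1 made 1 block of 450 bp, all 9 of them lay outside that interval.

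The strongest single window among the members was in HSPA1A. Its 9 windows from 5′ to 3′ were 1.06, 1.66, 1.45, 1.43, 4.57, 2.7, 1.69, 1.64 and 1.48, so that 1 window stood far above the rest and the gene median was 1.64. HSPA1A has a near-identical neighbour, HSPA1B, and how reads that match both were assigned is not given in the sources used here. AHCTF1, a nucleoporin that recruits pore complexes to chromatin, and BPTF, a reader of histone marks in a nucleosome remodelling complex, had strongest windows of 4.45 and 4.02. The smallest median belonged to DUSP6, a phosphatase that switches off ERK (0.83), and BCL2L1, which encodes the survival protein BCL-XL, stood at 0.91. In DUSP6 the windows read 1.20, 0.79, 1.09, 0.83, 1.12, 0.97, 0.77, 0.71 and 0.75, with no strong window, whereas BCL2L1 reached 2.67 in a single window.

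**Figure D3:**
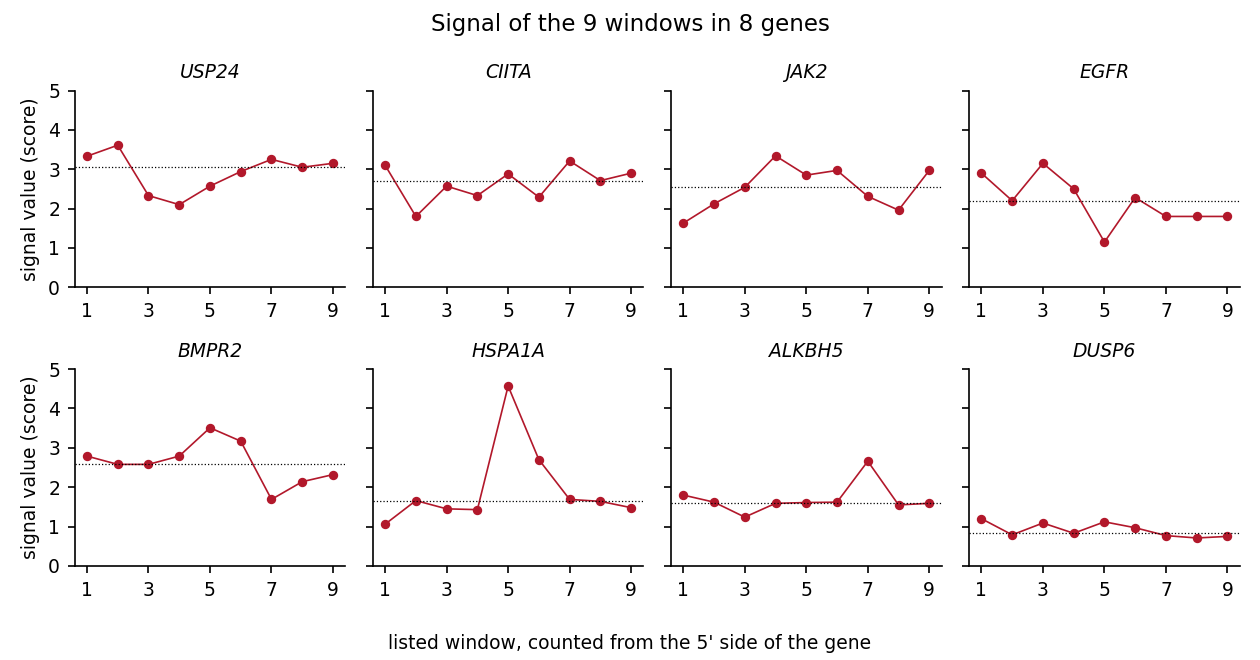
Signal value (vertical axis, the deposited score, no stated scale) of the 9 listed windows counted from the 5′ side (horizontal axis) in 8 members; dotted lines are gene medians, and lines join windows that need not be adjacent. USP24 stays at or above 2.10, HSPA1A peaks at 4.57 in 1 window, and DUSP6 does not exceed 1.20.

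The 9 windows of a gene rarely formed a single stretch. They made a median of 5 separate blocks (quartiles 4 and 6) over a median of 17125 bp (quartiles 2912.5 and 43562.5 bp). The range ran from 450 bp to 732300 bp, 127 genes (14.9%) kept all 9 within 1000 bp, and 78 spread them over more than 100000 bp. In 21 genes no window touched another. After LRBA, the widest were DST, a spectraplakin that links filament systems (384450 bp), and AL138752.2, a gene named after a clone (363500 bp). Where more windows were called than listed, these spans and blocks cover only the listed ones and not all windows that passed. The median span was 22500 bp in genes with 8 windows (first quartile 7550 bp) and 15700 bp in genes with 5 to 8. Their median numbers of blocks were 5 and 4. A single block was made in 0.97% of genes with 8 windows and in 2.78% of genes with 5 to 8, beside 1.29% of members.

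In 11 genes the 9 windows were adjacent and made 1 block of 450 bp: GABBR1 (outside its RefSeq interval), RNF139, RANBP6, ARHGEF12, SLMAP, FOXK2, RNF220, SMAD3, USP9X, BMPR2 and CDV3. Of these, 9 were on the plus strand, and 9 had a window within 500 bp of the RefSeq 5′ end. BMPR2, a receptor of bone morphogenetic proteins, began 1 bp from it, at chr2:202376328-202376377, and its windows read 2.79, 2.58, 2.58, 2.79, 3.51, 3.17, 1.69, 2.14 and 2.32. The X-linked deubiquitinase gene USP9X began 51 bp from it with a median of 2.52, and FOXK2, a forkhead factor, 32 bp from it with a median of 2.49. At least 15 windows were called in BMPR2, 12 in USP9X and 11 in FOXK2, so more windows of these genes had passed than the block shows.

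The position of the listed windows in members differed between strands. Windows were numbered along the genome, and no number exceeded 9. A listing that stopped there would show the 5′ side of plus-strand genes and the 3′ side of minus-strand genes with more windows. How the 9 windows were kept is not given in the sources used here, and this was not tested. The members were 423 plus-strand and 431 minus-strand genes, of which 390 and 398 lay in a RefSeq interval of the same name. The most 5′ listed window lay a median of 150.5 bp from the gene start on the plus strand and 2568.5 bp on the minus strand. It was within 500 bp in 254 plus-strand members (65.1%) and in 139 minus-strand members (34.9%). In genes with 5 to 8 windows, which showed no missing ranks where ranks were read, the shares were 57.9% and 59.7%. The distance from the most 3′ window to the gene end was 18114 bp on the plus strand and 5553 bp on the minus strand in members, against 5521.5 and 5501 bp in genes with 5 to 8. Within 500 bp of the 3′ end lay a window of 4 plus-strand members (1.03%) and of 16 minus-strand members (4.02%).

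**Figure D4:**
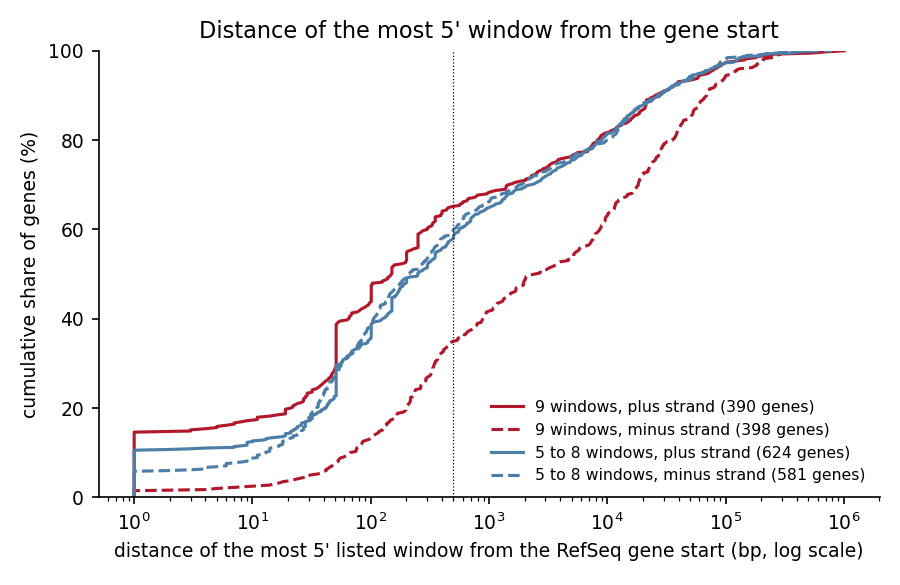
Cumulative share of genes (vertical axis, percent) whose most 5′ listed window lies within a given distance of the RefSeq gene start (horizontal axis, bp, log scale; distances under 1 bp are drawn at 1), for members (red) and genes with 5 to 8 windows (blue) on the plus strand (solid) and minus strand (dashed). At the dotted line of 500 bp the curves of members stand at 65.1% and 34.9%, and those of genes with 5 to 8 windows at 57.9% and 59.7%.

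Some windows belonged to more than 1 gene. On the same strand, 128 members (15%) shared at least 1 window with another gene, against 711 genes (12.2%) with 1 to 8 windows and 14.2% of genes with 5 to 8. In 15 members all 9 windows were shared, so a pair such as OPN3 and CHML or KYAT3 and RBMXL1 can count the same windows for each gene. Of 40 members named after a clone (4.68% of members), 37 shared a window. Among genes with 1 to 8 windows 221 (3.79%) had such a name, and how many of them shared a window was not counted. Windows of the opposite strand overlapped those of 25 members (2.93%) and of 71 genes (1.22%) with 1 to 8 windows.

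The kinds of genes at the limit were described with 32 lists by function, of which 19 stood above the 12.8% of all coding genes and 13 below. The lists held 250 of the 854 members, and 604 were in none. They held 1720 of the 6679 coding genes. Of these 14.5% carried 9 windows, beside 12.2% of the coding genes outside the lists. Every share is a count of listed genes and not a test, and tested windows differed between lists. With windows of q-value at most 0.001 alone, only 16 genes kept 9 windows and 7 lists stood above the share of all coding genes in that setting.

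Cytoskeletal linkers had the largest share of the 32 lists: 10 of 19 listed spectraplakins, spectrins, ankyrins and plakins (52.6%) carried 9 windows, and the list had a median of 130 tested windows. EPPK1 had a median signal of 2.40, SYNE2, a nesprin that ties the nucleus to actin, 2.22, DSP, the desmosomal protein desmoplakin, 2.07, and MACF1, a spectraplakin of actin and microtubules, 1.95. In MACF1 the windows spread over 303900 bp, at 1.95, 1.63, 2.40, 2.09, 1.52, 1.90, 2.31, 1.95 and 1.70. In EPPK1 they lay within 2200 bp, at 2.40, 2.40, 2.49, 2.71, 2.49, 1.81, 2.44, 2.09 and 1.38 from the 5′ side. Motor proteins stood at 7 of 34 (20.6%), including MYO19 (1.96), a mitochondrial myosin, and MYO10 (1.88), a myosin of filopodia. Laminins, collagens, integrins and cadherins stood at 7 of 33 (21.2%), with ITGA6, the α6 integrin subunit, at 2.66 and ITGA1 at 2.15, 8 of whose windows were shared. Within 40 to under 80 tested windows, 0 of 1 linker, 0 of 3 motor genes and 3 of 9 genes of the laminin list (33.3%) carried 9. All coding genes stood at 17.5% there. From 80 to under 160 it was 4 of 7 (57.1%), 5 of 10 and 2 of 3, beside 45.6%. At 160 or more it was 6 of 8 (75%), 2 of 3 and 2 of 9 (22.2%), beside 63.7%.

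Histone methyltransferases and demethylases stood at 9 of 43 (20.9%), with ASH1L (2.17), SETD5 (1.81), KMT2C (1.81) and KMT2D (1.73). The windows of KMT2D were 2.09, 2.41, 2.32, 1.68, 1.44, 1.73, 1.76, 1.59 and 1.40 from the 5′ side, in 8 blocks. Chromatin remodellers stood at 7 of 33 (21.2%), with the SWI/SNF subunits ARID1A (1.97) and ARID1B (1.94), EP400 (1.85) and CHD7 (1.66). In ARID1A the 9 windows lay within 1000 bp and began 22 bp from the gene start, and at least 18 windows were called. Acetyltransferases, deacetylases and bromodomain genes stood at 6 of 36 (16.7%): BPTF (2.67), BRPF3 (1.87), BAZ1B (1.82), the paralogous coactivators EP300 (1.81) and CREBBP (1.71), and the corepressor NCOR1 (1.55). Mediator subunits stood at 3 of 20 (15%), namely MED13 (2.10), MED1 (1.67) and MED13L (1.18). Within 40 to under 80 tested windows, 0 of 12 histone methylation genes, 0 of 8 remodellers, 2 of 15 acetylation genes (13.3%) and 0 of 6 Mediator subunits carried 9, beside 17.5% of all coding genes. From 80 to under 160 it was 7 of 16 (43.8%), 6 of 11 (54.5%), 4 of 10 and 3 of 3, beside 45.6%, and at 160 or more 1 of 4 histone methylation genes, beside 63.7%.

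C2H2 zinc finger genes were the largest list, and their share of 15.6% (53 of 340) was near that of all coding genes. The largest medians among them were 2.47 in ZNF800, 2.42 in ZNF12, 2.33 in ZBTB46 and 2.22 in ZNF316. Among genes with 40 to under 80 tested windows, 23 of 132 zinc finger genes (17.4%) carried 9, close to the 17.5% of all coding genes in that range. From 80 to under 160 it was 25 of 43 (58.1%), beside 45.6%.

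HECT and other giant ubiquitin ligases had 8 of 24 (33.3%) and a median of 75.5 tested windows, among them HECTD4 (2.42), UBE3A (2.34) and UBR4 (1.84). Ubiquitin-specific proteases had 7 of 33 (21.2%), led by USP24, USP9X, USP38 (1.96) and USP31 (1.82). Cullins, F-box and Kelch adaptors had 12 of 61 (19.7%), with KLHL11 (2.39), FBXW7 (2.20), a substrate adaptor for MYC and cyclin E, KLHL42 (2.12) and FBXO41 (1.94). TRIM and RNF genes had 13 of 69 (18.8%), with RNF220 at 2.53, and RNF213 counts in this list, among the giant ligases and in the IFN-γ pathway. Within 40 to under 80 tested windows the shares were 1 of 6 giant ligases (16.7%), 2 of 14 ubiquitin-specific proteases (14.3%), 7 of 27 cullin adaptors (25.9%) and 7 of 34 TRIM and RNF genes (20.6%), beside 17.5% of all coding genes. From 80 to under 160 they were 4 of 9 (44.4%), 5 of 5, 5 of 7 (71.4%) and 3 of 6, beside 45.6%. Proteasome subunits had 1 of 24 (4.17%), the IFN-γ-inducible PSMB9, and a median of 14 tested windows.

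Of 44 listed genes of the IFN-γ pathway, 11 (25%) carried 9 windows, and the list had a median of 51.5 tested windows. Within 40 to under 80 tested windows it was 6 of 21 (28.6%), beside 17.5% of all coding genes, from 80 to under 160 it was 3 of 6, beside 45.6%, and under 40 it was 0 of 15, beside 1.63%. CIITA had the largest median, with windows of 3.10, 1.80, 2.57, 2.33, 2.88, 2.29, 3.21, 2.71 and 2.90 from 29117 bp after the RefSeq gene start onward. JAK2, the kinase of the IFN-γ receptor, followed at 2.54, with windows of 1.63, 2.12, 2.54, 3.34, 2.85, 2.97, 2.31, 1.96 and 2.97 inside 500 bp at chr9:4984991-4985490. Both genes had each of their windows above 1.60, but those of CIITA were scattered in 6 blocks over 11300 bp. At least 11 of 42 tested windows were called in JAK2. The window with its printed GGAC site was the weakest of the 9.

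PSMB9, an immunoproteasome subunit, had a median of 2.22, but 6 of its windows were shared with the antisense-named gene PSMB8-AS1 on the same strand, and its windows left the RefSeq interval by more than 500 bp. OAS2, an antiviral oligoadenylate synthetase, had a median of 1.85 and at least 9 of 67 tested windows called. The others of this list, named after their values were seen, were PTPN11 (1.79), PARP14 (1.70), RNF213 (1.49), DTX3L (1.45), STAT3 (1.44), NLRC5 (1.43) and PARP9 (1.33). In STAT3, a transcription factor downstream of cytokine receptors, the windows read 1.82, 1.05, 1.09, 1.62, 1.26, 1.89, 1.44, 1.44 and 1.48 from the 5′ side over 65400 bp. NLRC5, an activator of MHC class I genes, had at least 16 of 143 windows called. None of the windows of STAT3 reached the median of JAK2.

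Receptor tyrosine kinases had 4 of 16 (25%): EGFR (2.20), IGF1R (1.80), EPHB4 (1.67) and ERBB2 (1.35). EGFR began 1 bp from its gene start with 2.90, 2.20, 3.15, 2.50, 1.15, 2.28, 1.80, 1.80 and 1.80, and at least 20 of 214 tested windows were called. ERBB2, which encodes the receptor HER2, began 11921 bp after the gene start with 1.68, 1.22, 1.23, 1.59, 1.62, 1.35, 1.62, 1.09 and 1.08, no window adjacent to another, and had at least 10 of 83 called. The 9 windows of ERBB2 thus all lay below the median of EGFR. Wnt pathway genes had 9 of 32 (28.1%), with the receptor FZD4 (2.25), the ligand WNT5B (2.23), the casein kinase CSNK1E (2.19, 7 windows shared) and the ligase ZNRF3 (1.98), which removes Wnt receptors. PI3K, AKT and mTOR genes had 5 of 29 (17.2%), among them TSC1 (1.81), FOXO3 (1.81) and IRS1 (1.09). RAB GTPases, regulators of small GTPases and exchange factors had 25 of 110 (22.7%), ARHGEF12 (2.13) among them. Within 40 to under 80 tested windows, 1 of 9 receptor tyrosine kinases (11.1%), 4 of 15 Wnt genes (26.7%), 0 of 12 PI3K, AKT and mTOR genes and 8 of 35 genes of the small GTPase list (22.9%) carried 9, beside 17.5% of all coding genes. From 80 to under 160 it was 2 of 4, 5 of 7 (71.4%), 3 of 6 and 12 of 20, beside 45.6%.

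Lists of genes that act on RNA stood on both sides of the share of all coding genes, before tested windows were considered. The m6A writers, erasers and readers had 4 of 19 (21.1%): the demethylase ALKBH5 (1.61), the reader YTHDF3 (1.45) and the writer subunits RBM15 (1.37) and RBM15B (1.19). ALKBH5 read 1.80, 1.62, 1.24, 1.59, 1.61, 1.62, 2.66, 1.55 and 1.59, and at least 14 of 76 tested windows were called, although its windows left the RefSeq interval by more than 500 bp. YTHDF3 read 1.32, 1.80, 1.45, 2.43, 1.00, 1.57, 1.26, 1.28 and 1.76 with at least 9 of 60 called. RBM15 had at least 27 of 84 called, and RBM15B at least 9 of 118. All 4 medians were below the 1.71 of an average member. mRNA decay and deadenylation factors had 8 of 46 (17.4%), including PAN3 (1.99), a deadenylase subunit, RC3H2 (1.83), AGO2 (1.81) and SMG1. Splicing factors and RBM genes had 8 of 82 (9.76%), with RBM15 and RBM15B counted again among them. DEAD and DEAH box helicases had 4 of 49 (8.16%), and translation factors 2 of 41 (4.88%), EEF2K (1.62) and EEF1D (1.39). Within 40 to under 80 tested windows, m6A genes had 2 of 6 (33.3%) and decay factors 6 of 16 (37.5%). In that range splicing and RBM genes had 5 of 19 (26.3%), helicases 2 of 18 (11.1%) and translation factors 1 of 12 (8.33%). All coding genes stood at 17.5% there. From 80 to under 160 it was 2 of 2, 1 of 5, 3 of 6, 2 of 3 and 1 of 2, beside 45.6%.

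None of 43 listed cytosolic ribosomal protein genes carried 9 windows, and this list had a median of 13 tested windows. Among mitochondrial ribosome and respiratory chain genes it was 1 of 67 (1.49%), MRPS6, with 8 windows shared with SLC5A3, and the list had a median of 15 tested windows. Replication-dependent histones had 1 of 25 (4.0%), HIST1H2BN, whose windows left the RefSeq interval of the gene by more than 500 bp, and TMEM genes 2 of 72 (2.78%), TMEM184C (2.08) and TMEM140 (1.78). VPS, SNX and autophagy genes had 3 of 58 (5.17%): LRBA (1.55), ATG2A (1.46) and SNX19 (1.15). DNA repair genes had 4 of 43 (9.30%), centrosome and spindle genes 4 of 39 (10.3%), solute carriers 12 of 114 (10.5%), and nucleoporins and transport receptors 5 of 40 (12.5%), which is near the background. Within 40 to under 80 tested windows, solute carriers had 7 of 31 (22.6%) and DNA repair genes 3 of 14 (21.4%). Nucleoporins and transport receptors had 3 of 14 (21.4%), and centrosome and spindle genes 1 of 16 (6.25%). In that range TMEM genes had 0 of 15, the VPS list 0 of 15, ribosomal protein genes 0 of 5 and the mitochondrial list 0 of 5. All coding genes stood at 17.5% there. From 80 to under 160, solute carriers had 3 of 11 (27.3%) and DNA repair genes 1 of 6 (16.7%). Nucleoporins had 2 of 6 (33.3%), centrosome genes 2 of 9 (22.2%) and the VPS list 1 of 8 (12.5%). TMEM genes had 0 of 3 and the mitochondrial list 1 of 1, beside 45.6%.

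**Figure D5:**
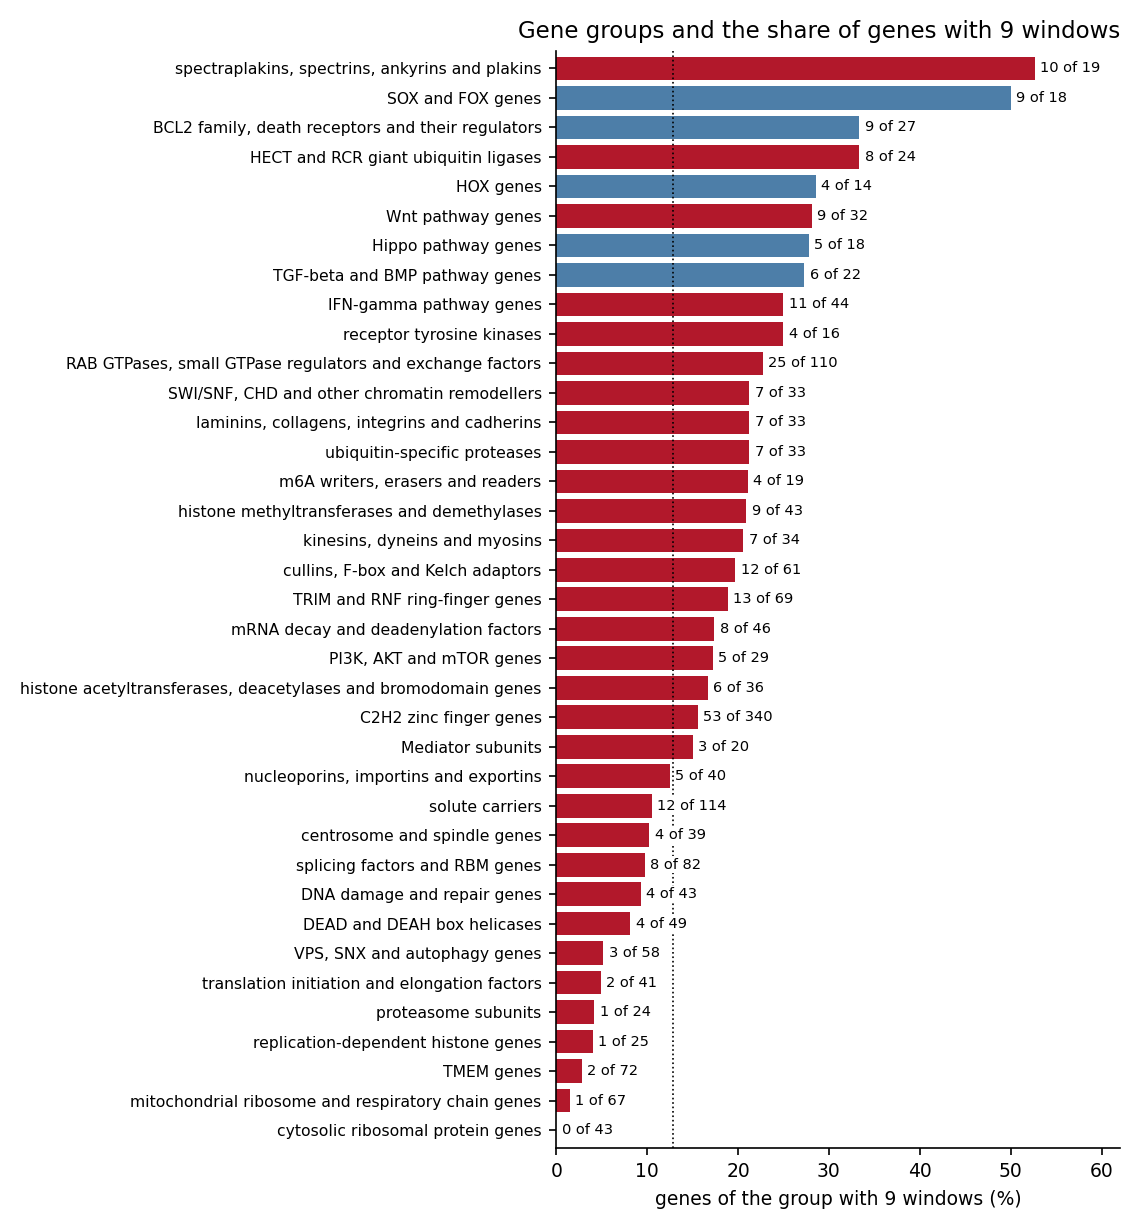
Share of the listed genes of each group that carried 9 windows (horizontal axis, percent) with counts beside the bars; the dotted line is all coding genes (12.8%), red bars are the 32 lists and blue bars 5 lists chosen after the values were seen. Bars run from 0 of 43 ribosomal protein genes to 10 of 19 cytoskeletal linkers.

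A further 5 lists were chosen after the values were seen and describe this table alone. SOX and FOX factors had 9 of 18 (50%), with a median of 53 tested windows. SOX4, SOX9 and SOX12, short genes of developmental and stem cell factors, began 1, 1 and 44 bp from their gene starts. In SOX4 at least 21 of 79 tested windows were called, and its windows were 2.41, 1.29, 1.48, 1.02, 1.08, 1.37, 1.29, 1.06 and 1.22. Apoptosis regulators of the BCL2 and death receptor families had 9 of 27 (33.3%), among them MDM2 (2.04), CFLAR (1.95), MCL1 (1.16) and BCL2L1 (0.91). HOX genes had 4 of 14 (28.6%), all in the HOXB cluster: HOXB7 (1.96) and HOXB9 (1.39) shared 8 and 7 windows with overlapping genes, and HOXB3 had at least 32 of 144 windows called. TGF-β and BMP genes had 6 of 22 (27.3%), with BMPR2, TGFB2 (1.91) and TGFB1 (1.27). Hippo pathway genes had 5 of 18 (27.8%), with the coactivator YAP1 (2.18), whose 9 windows lay within 650 bp.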

How the data were processed

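RIP-seq libraries (2 IP-YTHDF1, 2 Input) were aligned with STAR 2.7.3a to GRCh38, per the submitters' processing notes; the peak caller is not given in the sources used here. The authors deposited 1 table of 26820 windows. Its signal value and rank are treated as a score without stated scale, and its p-value and q-value are the deposited ones (largest q-value 0.05). There were 0 columns of single libraries, so depth is unknown and no test was run.

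Tested windows and ranks were read by dividing each q-value by its p-value, gene by gene (p-values above 1e-14, margin 3 on the natural log scale) and checked on simulated data. RefSeq tables (GRCh38.p14) gave gene spans for 788 members and 5443 other coding genes, 40 members having no matching symbol. Protein length, exons and sequence away from gene starts were not analysed here; gene span replaced protein length in the named-gene rule, and GGAC stood in for DRACH.

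Members and lists were chosen with earlier results of these data known. Named genes were those with the largest and smallest medians, strongest window, extreme window spans and gene spans, up to 4 leading genes per list (all where 6 or fewer), 3 genes with 8 windows, and JAK2, ALKBH5, ERBB2 and YTHDF3; others were chosen after their values were seen, and some genes that the rule named are not reported here. Alternatives were other window limits, a q-value of 0.001, shared windows, main chromosomes, strands and wider stretches. Python 3.11.15, pandas 2.3.3, NumPy 2.4.6 and matplotlib 3.10.9 were used.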

Additional observations from a re-analysis of the deposited data

How the results depend on the processing

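No paired analysis was possible because no value belongs to a single library. The number of genes at the limit was 854; it was 1320 with 7 or more windows and 16 with q-values of at most 0.001, where few genes kept 9 windows. It was 726 without shared windows, 854 on the main chromosomes and 645 where a rank was skipped. Of the 32 lists, 19 stood above all coding genes. The number was 7 at a q-value of 0.001, where any list with 1 of the 16 genes stood above. In the other 4 alternatives 29 lists stayed on their side, and the centrosome, nucleoporin and histone lists changed. The share with a window within 500 bp of the 5′ end was 49.9%, made of 65.1% on the plus strand and 34.9% on the minus strand, and among the comparison genes it was 43.4% with 1 to 8 windows and 58.8% with 5 to 8. The signal difference from genes with 1 to 8 windows was -0.22, and it was -0.10 against genes with 5 to 8, -0.193 at a q-value of 0.001 and 0.29, the opposite sign, for the strongest window, which is higher by construction where more windows are listed. GGAC stood in 19.7% of covered windows and in 49.6% with 50 bp added on each side, a longer stretch. The ratio of median spans was 1.73, and it was 1.38 against genes with 5 to 8 windows and 2.44 with tested windows, chosen after the data were seen. Protein length and DRACH could not be run on the references given.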
